A study of Mus musculus with 9 samples.

Results

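The transcripts described here encode 9 surface receptors with which macrophages bind lipoproteins, dead cells and microbial glycans, namely the scavenger receptors Msr1, Cd36 and Marco, the C-type lectins Mrc1, Clec7a, Clec4e, Clec4d and Clec4n, and the lipid receptor Trem2. They were taken by symbol in GENCODE M21 and make up 9 of the 28137 genes in the deposited table. RNA-seq was available for 9 libraries, all of RAW264.7, a macrophage line from a virus-induced tumor of a mouse. Per the labels, 3 libraries received a negative control siRNA (NC), 3 an siRNA to SFRP2, a secreted modulator of Wnt signaling, and 3 an siRNA to RAB6A, a GTPase of the Golgi. All were transfected with 60 nM siRNA for 6 h, kept in complete medium for 12 h and then given 100 ng/ml lipopolysaccharide (LPS) for 24 h, so that no group was without siRNA or without LPS. The labels do not say whether the 3 libraries of a group came from separate cultures, and p-values measure the spread between these libraries only. Each title holds a single number, so that siRNA-1 to siRNA-3 may name libraries or siRNA sequences, and which is not stated. All titles also carry the mark 6H, whose meaning is not given, and the LPS time is therefore that of the protocol only.

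Scavenger receptors are defined by the uptake of modified low-density lipoprotein, and several of them also bind bacteria and apoptotic cells. C-type lectin receptors recognize sugars and glycolipids. Clec7a carries its own activating motif, whereas Clec4e, Clec4d and Clec4n signal through the adaptor Fcer1g, the kinase Syk and Card9. Trem2 binds lipids and apolipoproteins and signals through Tyrobp. LPS is known to induce Clec4e and Clec4d in macrophages, and Mrc1 is widely used as a marker of alternative activation.

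Clec4n (ENSMUSG00000023349, 123229843 to 123247021, + strand), Clec4d (ENSMUSG00000030144, 123262111 to 123275265, + strand) and Clec4e (ENSMUSG00000030142, 123281789 to 123289870, - strand) are neighbors on chromosome 6 of the mouse genome GRCm38. Gaps of 15.1 kb and 6.52 kb separate them. Clec7a (ENSMUSG00000079293) lies further along the same chromosome, from 129461591 to 129472779 on the - strand, and GENCODE M21 lists it as a polymorphic pseudogene. Msr1 (ENSMUSG00000025044) is on chromosome 8 from 39581685 to 39642673 and Cd36 (ENSMUSG00000002944) on chromosome 5 from 17781690 to 17888801, both on the - strand. Trem2 (ENSMUSG00000023992) occupies 48346401 to 48354147 of chromosome 17, + strand. Marco (ENSMUSG00000026390) spans 120474538 to 120505024 of chromosome 1, - strand, and Mrc1 (ENSMUSG00000026712) spans 14229392 to 14332057 of chromosome 2, + strand. A microRNA gene, Mir511, lies within Mrc1 on the same strand, and no other annotated gene overlapped the 9.

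Promoter windows of RefSeq on GRCm38.p6, from 250 bases before to 50 bases after a transcript start of a gene, were found for 7 of the 9 genes. No window was found for Msr1 and Clec4n. The windows of the receptor that fell most, of its neighbor, of Trem2 and of Cd36 are given, that is, of 3 receptors that fell with RAB6A siRNA and 1 that did not pass the test. Capitals mark the core box of PU.1 (GAGGAA, or TTCCTC on the other strand), the factor that defines the macrophage lineage. The windows are chr6:123261857-123262156 (+) for Clec4d, chr6:123289822-123290121 (-) for Clec4e, chr17:48346151-48346450 (+) for Trem2 and chr5:17835847-17836146 (-) for Cd36, and each is written along the strand of its gene.
Clec4d: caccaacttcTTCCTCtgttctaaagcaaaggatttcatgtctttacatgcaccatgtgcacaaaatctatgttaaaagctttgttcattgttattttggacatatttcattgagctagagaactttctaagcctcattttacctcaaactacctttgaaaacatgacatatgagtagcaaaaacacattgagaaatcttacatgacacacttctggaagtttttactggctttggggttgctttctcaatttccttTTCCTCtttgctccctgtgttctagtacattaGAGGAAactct
Clec4e: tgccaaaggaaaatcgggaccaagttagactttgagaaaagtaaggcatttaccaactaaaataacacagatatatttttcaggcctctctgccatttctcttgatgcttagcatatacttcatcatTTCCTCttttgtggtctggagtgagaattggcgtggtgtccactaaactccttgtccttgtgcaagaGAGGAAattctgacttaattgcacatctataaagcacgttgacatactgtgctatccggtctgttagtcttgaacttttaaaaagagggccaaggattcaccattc
Trem2: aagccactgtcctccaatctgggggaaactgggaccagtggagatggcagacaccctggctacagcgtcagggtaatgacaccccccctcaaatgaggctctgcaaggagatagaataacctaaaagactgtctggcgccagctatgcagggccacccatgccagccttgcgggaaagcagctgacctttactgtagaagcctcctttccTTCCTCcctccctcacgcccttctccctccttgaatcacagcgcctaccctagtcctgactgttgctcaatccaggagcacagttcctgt
Cd36: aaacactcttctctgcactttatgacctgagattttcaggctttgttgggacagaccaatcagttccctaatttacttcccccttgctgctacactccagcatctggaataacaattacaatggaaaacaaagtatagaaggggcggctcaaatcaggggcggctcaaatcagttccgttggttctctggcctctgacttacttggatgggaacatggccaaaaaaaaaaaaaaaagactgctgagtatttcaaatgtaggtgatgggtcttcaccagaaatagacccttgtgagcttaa
With the first transcribed base as 1, the boxes begin at -240, 8 and 40 in Clec4d, at -123 and -56 in Clec4e and at -40 in Trem2, and there is none in the Cd36 window. That window belongs to a start inside Cd36 as annotated, far from the 5' end of the gene at 17888801. Sequence at other starts of Cd36 was not examined. Of the 7 receptors with a window, 6 hold at least 1 box, against 28.3% of 32851 windows of the same length. Among the 6 is Clec7a, which like Cd36 did not pass the test and holds a box at -96 or -90, by transcript start. Any link between boxes and falls was not tested. The letters TTGCNNAA of C/EBP factors occur in Clec4e and Trem2 (10.8% of windows), on either strand. TGANTCA, looser than the AP-1 motif with G or C in the middle, occurs in Trem2 only as TGAATCA (7.81% of windows for TGANTCA). Neither the NF-kB motif of GGGA, any base and TTTCC (0.411% of windows) nor the E-box CACGTG (7.15% of windows) was found in the 7. A match describes the sequence and not a site in use.

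The recovered library sizes ranged from 32758728 to 47149256 reads. The 3 RAB6A libraries (32758728 to 37833882 reads) and the 3 SFRP2 libraries (34743303 to 40562561 reads) were all smaller than the 3 NC libraries (41608379 to 47149256 reads). The 10 genes with most reads took 13.6% to 15.5% of the reads in NC, 14.4% to 16.99% in SFRP2 and 18.4% to 19.1% in RAB6A libraries. Sfrp2 had 2 reads in each NC library, 2 to 4 reads in the libraries labeled SFRP2 siRNA and 3 to 4 reads in the RAB6A libraries, at the floor of 3 reads, so that its level does not check the label. Rab6a was 25.7 ± 1.48 FPKM in NC and 20.7 ± 0.445 FPKM in RAB6A libraries (SD, n = 3), a log2 fold change of -0.31 (SE 0.06, limma adjusted p = 0.0024). In this comparison 36.5% of all genes tested fell with an adjusted p under 0.05, so that so small a fall checks the label only weakly. Of 10 macrophage markers, 9 had a mean of at least 0.5 FPKM, with Cd14 at 1443 to 2107 FPKM and Adgre1 at 47.6 to 58.6 FPKM, and Mertk was at most 0.0731 FPKM. These 3 were chosen after their values were seen. Lists of other cell types were lower, with summed T cell markers at most 0.117 FPKM, B cell markers at most 0.488 FPKM and neutrophil markers at most 0.268 FPKM, but osteoclast markers at 25.0 to 39.4 FPKM.

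In NC libraries the receptors spanned a wide range, from Clec4d at 196 ± 1.70 FPKM to Mrc1 at 0.0738 ± 0.0187 FPKM (SD, n = 3). FPKM scales the fragments of a gene to its exon length and to the size of the library, so that levels can be set side by side between genes. Cd36, a fatty acid transporter and receptor of oxidized lipoprotein, came second at 118 ± 11.7 FPKM, before Msr1 at 78.5 ± 2.09 FPKM and Clec4e at 67.7 ± 3.78 FPKM. Trem2 was intermediate at 14.6 ± 0.335 FPKM and Clec4n low at 3.66 ± 0.562 FPKM. Clec7a, the beta-glucan receptor, was at 0.594 ± 0.120 FPKM, and Marco at 0.165 ± 0.0608 FPKM. No neighbors in this order overlapped over the 3 NC libraries.

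The order depends on the length used. The deposited values divide by all exons of a gene, which for Msr1, Trem2 and Clec7a are 4.46, 4.55 and 3.73 times as long as the principal transcript. Divided by the principal transcript, Msr1 was highest in NC at 349.5 ± 9.32 length-scaled units, followed by Clec4d at 237 ± 2.05. All reads of a gene were kept in this division, so that reads outside the principal transcript, where present, raised the values. On this scale Clec4e (134 ± 7.45) and Cd36 (125 ± 12.4) overlapped, as did Marco and Mrc1. In the SFRP2 libraries Clec4d led by FPKM and the ranges of Msr1 and Clec4e overlapped. In the RAB6A libraries Cd36 was highest by FPKM, before Clec4d, and the ranges of Marco and Mrc1 overlapped.

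**Figure D1:**
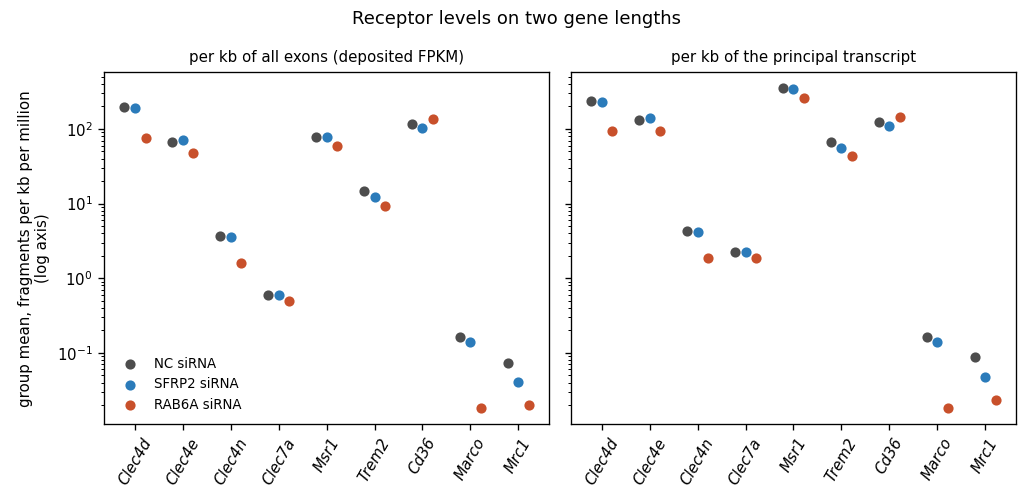
Mean level of the 9 receptors in each group (n = 3) on a log axis, per kilobase of all exons as deposited (left) and per kilobase of the principal transcript (right). All reads of a gene are used on both sides. Clec4d is highest in NC on the left, Msr1 on the right, and Marco and Mrc1 are lowest in all groups on both.

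The receptors were next compared between RAB6A siRNA and NC. Of the 7 receptors past the filter of a mean of 0.5 FPKM, 5 fell, namely Clec4d, Clec4n, Trem2, Clec4e and Msr1, and none rose (limma, adjusted p under 0.05). In this comparison 36.5% of the 12712 genes tested fell by the same rule and 37.6% rose, so that a large part of all transcripts differed between these groups. With an absolute log2 fold change over 1 as well, the rule by which DEGs were called, Clec4d and Clec4n were 2 DEGs, and 12.8% of all genes were lower DEGs. The NC and RAB6A libraries did not overlap, with RAB6A lower, for 5 of the 7 receptors and for 38.2% of the genes tested. In bulk RNA, fewer cells of a type and less RNA per cell cannot be told apart.

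Clec4d, also known as MCL, forms a complex with Clec4e at the cell surface and binds mycobacterial glycolipid. Its level was 197, 195 and 198 FPKM in NC libraries 1 to 3 and 71.4, 82.9 and 75.1 FPKM in RAB6A libraries 1 to 3. The highest RAB6A library was well below the lowest NC library. The log2 fold change was -1.36 (SE 0.07, adjusted p = 2.94e-06), and 7.16% of the genes tested had a lower one. The values rested on 3935 to 14673 reads per library.

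Clec4n, or Dectin-2, a receptor of fungal mannans, had 3.16, 3.55 and 4.27 FPKM in NC and 1.59, 1.79 and 1.46 FPKM in RAB6A libraries. The groups did not overlap. The log2 fold change was -1.13 (SE 0.13, adjusted p = 0.000158), on 68 to 258 reads per library, and with a pseudocount of 1, at -0.83, Clec4n was no longer a DEG. Clec4e, or Mincle, which senses mycobacterial cord factor and a ribonucleoprotein of dead cells, fell as well. It was at 67.2, 71.7 and 64.2 FPKM in NC and 48.1, 49.0 and 46.5 FPKM in RAB6A libraries, again without overlap. Its log2 fold change was -0.50 (SE 0.06, adjusted p = 0.000170).

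Within a library, the ratio of Clec4d to Clec4e does not depend on library size. This ratio was 2.93, 2.71 and 3.08 in NC and 1.48, 1.69 and 1.62 in RAB6A libraries. All RAB6A ratios were lower (exact two-sided permutation p = 0.1, below which 3 against 3 libraries cannot go). The ratio of Clec4d to Clec4n was 54.4 ± 7.94 in NC and 47.6 ± 3.38 in RAB6A libraries (SD, n = 3), and these values overlapped (exact p = 0.3).

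**Figure D2:**
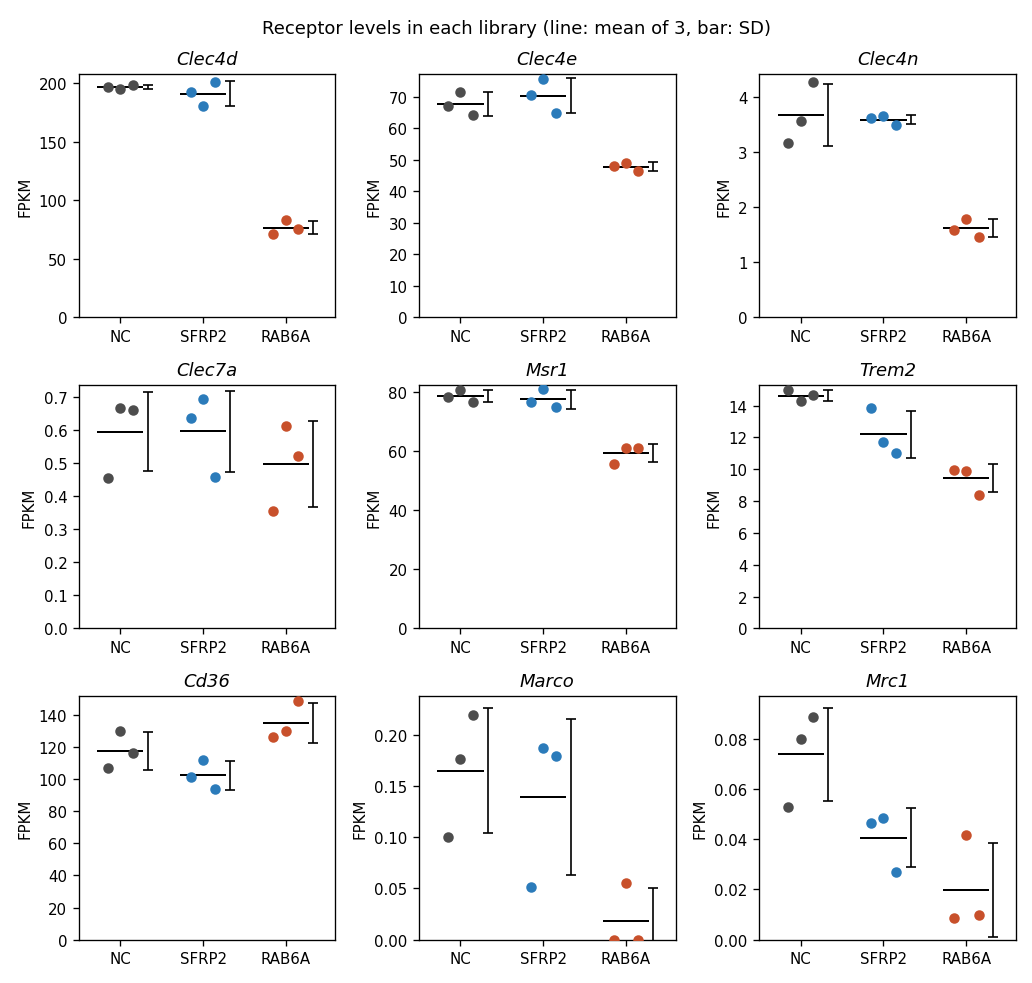
FPKM of each receptor in each library, with the 3 NC, 3 SFRP2 and 3 RAB6A libraries as points in the order of their replicate numbers, the mean as a line and the SD as a bar, and the axis from 0. The RAB6A points of Clec4d (71.4 to 82.9), Clec4e, Clec4n, Msr1 and Trem2 lie below all NC points, while those of Cd36 and Clec7a overlap with NC.

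Other genes around Clec4d were also looked at, chosen after their values were seen. Clec4a1 and Clec4a3, C-type lectins of myeloid cells, were at 2.06 ± 0.177 and 1.71 ± 0.146 FPKM in NC and both fell, with log2 fold changes of -2.49 (SE 0.38, adjusted p = 0.000600) and -1.80 (SE 0.18, adjusted p = 6.09e-05). Clec4a2 was below the filter, with 0.257 to 0.460 FPKM in NC and 0 to 0.0282 FPKM in RAB6A libraries. C3ar1, the receptor of complement C3a, was 188 ± 10.6 FPKM in NC and 22.8 ± 0.986 FPKM in RAB6A libraries, and fell by 3.04 (SE 0.06, adjusted p = 4.17e-07). Necap1, an endocytosis factor between C3ar1 and Clec4a1, rose by 0.59 (SE 0.07, adjusted p = 0.000227). All C-type lectin genes of this stretch that were tested were thus lower in RAB6A libraries, among them Clec4n, Clec4d and Clec4e as given above. Clec4a1 and Clec4a3, at 0.319 and 0.420 FPKM in RAB6A libraries, passed the filter only through NC. At these RAB6A levels they could enter the test only by being higher in NC. Of all genes tested, 36.5% fell. The largest fall of the stretch was that of C3ar1, which is not a lectin, and Necap1 was higher. The stretch ran from C3ar1 to Clec4e, and genes beyond it were not examined.

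**Figure D3:**
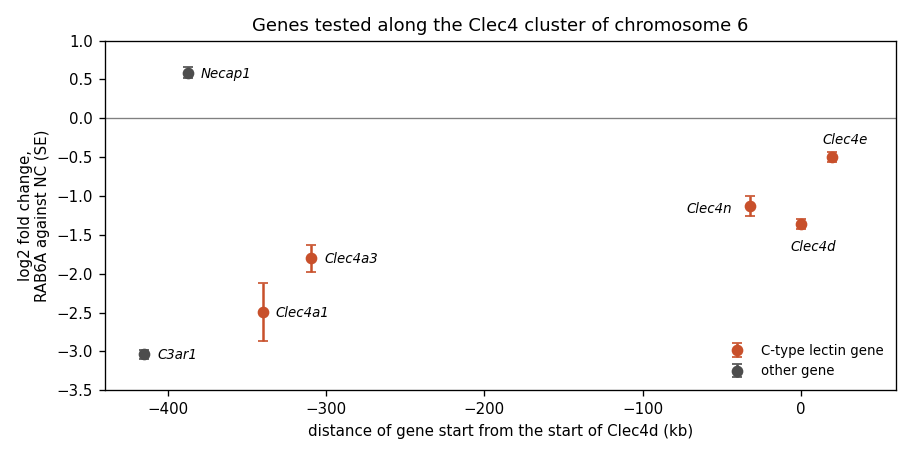
Log2 fold change of RAB6A against NC, with SE, for the genes tested around Clec4d, by the distance of the gene start from that of Clec4d in kilobases. The 5 C-type lectin genes are below 0, from -2.49 for Clec4a1 to -0.50 for Clec4e, and Clec4a1 and Clec4a3 passed the filter only through NC. Of the other genes, C3ar1 is lowest at -3.04 and Necap1 is above 0 at 0.59.

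Msr1, the class A scavenger receptor of acetylated lipoprotein and bacteria, had 78.2, 80.6 and 76.5 FPKM in NC and 55.6, 60.9 and 61.0 FPKM in RAB6A libraries. The groups were apart. The log2 fold change was -0.41 (SE 0.06, adjusted p = 0.000454), within a range that many genes passed, since 31.0% of the genes tested had a lower one. Trem2 was at 14.97, 14.3 and 14.6 FPKM in NC and 9.96, 9.89 and 8.41 FPKM in RAB6A libraries, also apart. It fell by 0.63 on the log2 scale (SE 0.08, adjusted p = 0.000207).

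Cd36 did not pass the test. It was at 107, 130.4 and 116 FPKM in NC and 126, 130.0 and 149 FPKM in RAB6A libraries, and the groups overlapped. The log2 fold change was 0.20 (95% interval -0.02 to 0.42, adjusted p = 0.0937). The adjusted p was 0.0407 with voom on the recovered reads and 0.0411 without NC replicate 2 (log2 fold change 0.27). The value was instead 0.098 with quantile normalization (adjusted p = 0.421), 0.12 without RAB6A replicate 3 and 0.13 without NC replicate 1. Clec7a was at 0.456, 0.667 and 0.660 FPKM in NC and 0.355, 0.611 and 0.521 FPKM in RAB6A libraries, with overlap. Its log2 fold change was -0.23, with a wide interval of -0.88 to 0.42 (adjusted p = 0.475). With quantile normalization it was -0.88 (adjusted p = 0.03003), and with single libraries left out it ranged from -0.38 without NC replicate 1 to -0.048 without RAB6A replicate 1.

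Marco, a scavenger receptor that binds bacteria, and Mrc1, the mannose receptor, were below the filter and were not tested in the fit. Marco had 8, 16 and 18 reads in NC and 0, 4 and 0 reads in RAB6A libraries. All RAB6A libraries were lower (exact two-sided permutation p = 0.1, the lowest this design allows). With the 2 reads of a fragment counted as 1, there were 21 fragments in NC and 2 in RAB6A libraries, and the ratio at equal depth was 0.117 (exact 95% interval 0.0133 to 0.478, for counting error only). Mrc1 had 14, 24 and 24 reads in NC and 2, 10 and 2 reads in RAB6A libraries, likewise without overlap (exact p = 0.1). Its ratio was 0.277 (95% interval 0.103 to 0.642), from 31 fragments in NC and 7 in RAB6A libraries. Without the filter, limma gave log2 fold changes of -1.17 (adjusted p = 0.0142) for Marco and -0.54 (adjusted p = 0.0492) for Mrc1, on the scale of log2(FPKM + 0.1), which understates changes at such low levels.

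The FPKM of the 9 receptors summed to 479.7 ± 14.6 in NC, 458 ± 8.07 in SFRP2 and 330.2 ± 15.02 in RAB6A libraries (SD, n = 3). Clec4d made up 41.0% ± 1.53 of this sum in NC and 23.2% ± 1.43 in RAB6A libraries, and Cd36 24.5% ± 1.71 and 40.9% ± 2.47. Clec4d to Cd36 was accordingly 1.84, 1.49 and 1.70 in NC and 0.566, 0.638 and 0.504 in RAB6A libraries. Msr1 to Cd36 was 0.669 ± 0.0571 in NC and 0.439 ± 0.02998 in RAB6A libraries. For both ratios the RAB6A libraries were all lower (exact p = 0.1, the smallest possible), as the levels given above already imply. The sizes of the sum, shares and ratios rest on the deposited length of all exons. Per kilobase of the principal transcript Msr1 was highest in each group. On that scale neither Clec4d in NC nor Cd36 in RAB6A libraries was the largest part.

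The same receptors were then compared between SFRP2 siRNA and NC. No receptor of the 7 tested passed an adjusted p of 0.05 in limma or in voom, and neither did any of the 12017 genes in limma (0%), whereas voom called 41 genes. At an unadjusted p under 0.05, limma picked 1 of the 7 receptors, Trem2, and 18.5% of all genes. Trem2 was at 13.9, 11.7 and 11.004 FPKM in SFRP2 libraries, below all 3 NC libraries. The log2 fold change was -0.27 (SE 0.09, 95% interval -0.47 to -0.06), with an unadjusted p of 0.0171 and an adjusted p of 0.202 in limma. Among all genes, 13.9% had SFRP2 libraries entirely below NC, so that a gap of this kind was common.

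Clec4d was at 192, 180.1 and 201 FPKM in SFRP2 libraries and Clec4e at 70.6, 75.7 and 64.8 FPKM. Both overlapped with NC. The log2 fold changes were -0.04 (95% interval -0.16 to 0.08) and 0.05 (-0.11 to 0.22). For Msr1, at 76.6, 81.0 and 74.6 FPKM, it was -0.02 (95% interval -0.13 to 0.09). These intervals do not reach the log2 fold changes of the RAB6A comparison, and the signs of these 3 genes changed under other settings. After correction for GC content and length, the log2 fold change was -0.15 for Clec4d, -0.050 for Clec4e and -0.19 for Msr1, the last outside the interval of the uncorrected value and with an adjusted p of 0.217. Clec4n had 3.61, 3.64 and 3.49 FPKM and a log2 fold change of -0.02 (95% interval -0.28 to 0.24).

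Cd36 was at 102, 112 and 94.0 FPKM in SFRP2 libraries, with a log2 fold change of -0.20 (95% interval -0.41 to 0.01, adjusted p = 0.292). The groups overlapped. The value was -0.13 without NC replicate 2 and -0.35 (adjusted p = 0.2002) after correction for GC content and length. Clec7a, at 0.635, 0.692 and 0.458 FPKM, had a log2 fold change of 0.0020 (95% interval -0.59 to 0.59) on 42 to 83 reads per library. Marco had 4, 14 and 12 reads and overlapped with NC. Mrc1 had 12, 12 and 6 reads, fewer than in any NC library (exact two-sided permutation p = 0.1, again the lowest possible), and the ratio at equal depth was 0.556 (95% interval 0.279 to 1.06). In this comparison, log2 fold changes fell with GC content over all genes (Spearman rho -0.48 over 11903 genes, a description), and the corrected value of Trem2 was -0.22 (limma adjusted p = 0.295).

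**Figure D4:**
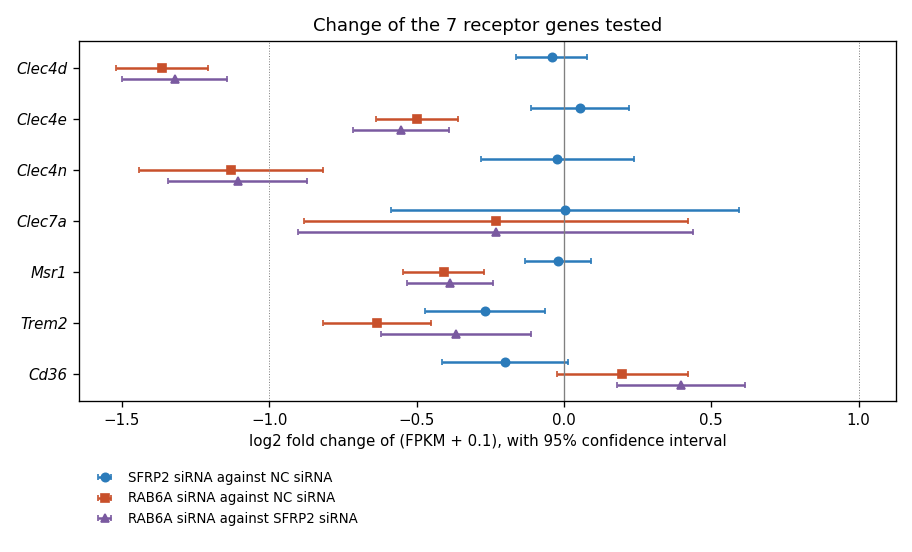
Log2 fold change of the 7 receptors tested in the 3 comparisons, with 95% confidence intervals, dotted lines at -1 and 1. Clec4d and Clec4n are below -1 in both comparisons of RAB6A siRNA, and all SFRP2 against NC values lie between -0.27 and 0.05.

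The RAB6A libraries were also compared with the SFRP2 libraries. This comparison shares the RAB6A libraries with that against NC and is not an independent repeat of it. Of the 7 receptors tested, 5 were lower in RAB6A libraries (35.8% of the 12764 genes tested) and 1, Cd36, was higher (37.6%). Cd36 was at 94.0 to 112 FPKM in SFRP2 and 126 to 149 FPKM in RAB6A libraries, without overlap, and the log2 fold change was 0.40 (SE 0.09, limma adjusted p = 0.00599). With quantile normalization its adjusted p was 0.0504. Clec4d and Clec4n were 2 lower DEGs (13.3% of all genes), at log2 fold changes of -1.32 (SE 0.08) and -1.11 (SE 0.10).

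Clec4e differed by -0.55 (SE 0.07) and Msr1 by -0.39 (SE 0.06) on the log2 scale, and Clec4e by -0.29 (limma adjusted p = 0.00333) after correction for GC content and length. Trem2 was lower by a smaller margin, at -0.37 (SE 0.11, limma adjusted p = 0.0178), and its adjusted p was 0.0502 without SFRP2 replicate 1 and 0.0827 after correction for GC content and length. Clec7a did not pass (-0.23, adjusted p = 0.482), and without RAB6A replicate 1 it was at -0.050. Marco and Mrc1 were below the filter, with overlapping groups and ratios of 0.142 (95% interval 0.0158 to 0.612) and 0.498 (95% interval 0.172 to 1.298).

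Genes of the same pathways, listed by hand, were examined for RAB6A siRNA against NC. Over all genes tested the median was 0.03, and each count below stands against the 36.5% of genes that fell and the 37.6% that rose. Among 9 other C-type lectin and Trem receptors tested (of 35 listed), 7 fell and 2 rose, with a median of -1.21. Clec4a1 and Clec5a, a Tyrobp-coupled lectin, fell most, the latter from 100.1 ± 6.29 to 23.3 ± 1.42 FPKM (log2 fold change -2.10, SE 0.07). Clec12a, an inhibitory lectin, was at 17.7 ± 1.43 FPKM in NC and fell by 1.21 (SE 0.08). Cd93 and the galactose lectin Clec10a rose by 1.86 (SE 0.23) and 1.56 (SE 0.40), from 0.214 ± 0.0281 and 0.243 ± 0.0853 FPKM in NC. Both passed the filter only through the RAB6A libraries (1.04 and 0.952 FPKM), and at these NC levels could enter the count only by rising. Clec4a1 and Clec4a3, under 0.5 FPKM in RAB6A libraries, passed in turn through NC.

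Of 9 other scavenger receptors tested (of 21 listed), 3 rose and 4 fell, with a median of -0.20. Colec12, which binds oxidized lipoprotein and yeast, fell from 46.5 ± 2.42 to 11.7 ± 0.619 FPKM (log2 fold change -1.98, SE 0.07), and Cd5l fell by 1.07 (SE 0.34) from 0.964 ± 0.219 FPKM. Cd5l was under 0.5 FPKM in RAB6A libraries and passed the filter through NC. Cxcl16, a chemokine that also takes up oxidized lipoprotein, rose by 1.06 (SE 0.10), and Scarb1, the receptor of high-density lipoprotein, by 0.87 (SE 0.07). Cd68 was at 1850.0 ± 110.0 FPKM in NC and 1682 ± 84.2 FPKM in RAB6A libraries (adjusted p = 0.184), and Stab1 did not pass either (-0.40, adjusted p = 0.0798). Cd163 was not analysed here.

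The adaptors of the receptors that fell were higher. Tyrobp, the partner of Trem2, rose from 209.9 ± 3.17 to 413 ± 48.5 FPKM (log2 fold change 0.97, SE 0.09), and Fcer1g, the partner of Clec4e, Clec4d and Clec4n, from 419 ± 21.3 to 564 ± 30.8 FPKM (0.43, SE 0.07). The ratio of Trem2 to Tyrobp was 0.0710, 0.0693 and 0.0689 in NC and 0.0229, 0.0222 and 0.0235 in RAB6A libraries, and that of Clec4e to Fcer1g was 0.162 ± 0.0172 and 0.0850 ± 0.00273 (SD, n = 3). Both ratios were lower in all RAB6A libraries (exact p = 0.1, the smallest possible). In each RAB6A library these receptors were lower and their adaptors higher than in any NC library. The outcome for the ratios was therefore fixed and adds no support. Syk, the kinase downstream, fell by 1.03 (SE 0.07) and the phosphatase Ptpn11 by 1.06 (SE 0.05), while the kinase Fgr rose by 0.91 (SE 0.13) and Card9 by 0.25 (SE 0.09). Over the 24 genes of adaptors and signaling, 10 rose and 10 fell, with a median of 0.05, so that the list did not move one way.

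In the list of lipid loading and ligand handling, 6 of 18 genes tested rose and 7 fell, with a median of -0.09. Plin2, the coat protein of lipid droplets, fell from 102 ± 11.8 to 37.5 ± 3.89 FPKM (log2 fold change -1.44, SE 0.11), and Soat1, which esterifies cholesterol, by 1.17 (SE 0.06). Lgals3 and Spp1, which encode galectin-3 and osteopontin, both rose by 0.87 (SE 0.09 and 0.13). Among 19 transcription factors tested, 7 rose and 10 fell, with a median of -0.32. Maf fell from 13.5 ± 1.87 to 0.422 ± 0.0704 FPKM (log2 fold change -4.71, SE 0.14) and Cebpd by 1.99 (SE 0.05), while Tfeb, a regulator of lysosomal genes, rose by 1.75 (SE 0.12) and Klf4 by 0.85 (SE 0.17). Spi1, which encodes PU.1 and was chosen after its value was seen, fell from 130.4 ± 9.28 to 62.9 ± 5.41 FPKM (-1.05, SE 0.08). All named genes that rose or fell in these lists had an adjusted p of at most 0.0345 in limma. In SFRP2 siRNA against NC, no gene of the 5 lists passed an adjusted p of 0.05 in limma, with 20 of their 77 tested genes at an unadjusted p under 0.05, beside 18.5% of all genes.

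**Figure D5:**
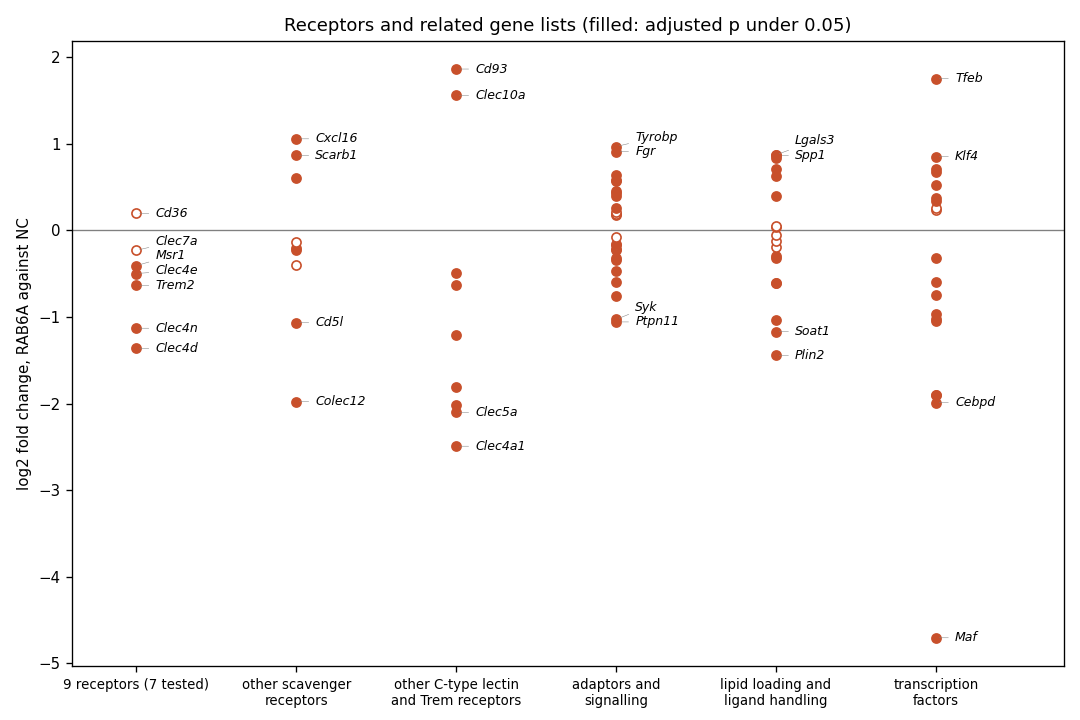
Log2 fold change of RAB6A against NC for the receptors tested and for 5 lists of related genes, filled where the adjusted p was under 0.05, with the genes of the text named. The other C-type lectin and Trem receptors lie mostly below 0, whereas the adaptors and signaling genes are divided around 0.

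General macrophage transcripts also differed between RAB6A and NC libraries. The summed markers of macrophages were 2280.5 to 2607 FPKM in RAB6A and 2873 to 3129 FPKM in NC libraries, and of the 9 tested 4 fell and 2 rose (36.5% and 37.6% of all genes). The summed genes of the LPS response were 2666 to 2786 FPKM in RAB6A and 4611 to 4903 FPKM in NC libraries, with 4 of 7 lower and 2 higher. Single genes weighed heavily in these sums, as seen in genes chosen after their values were known. Lyz2 was at 872 FPKM in NC and 214 FPKM in RAB6A libraries, and Acod1 at 2458 and 624 FPKM. Cd14 went the other way, at 1679 and 1943 FPKM (limma adjusted p = 0.0785). No marker of either list was at 0 in all libraries. Their part in the receptor differences was not tested, nor was that of the smaller library sizes.

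Over the 9 libraries, each receptor was set beside the 12378 genes with a mean of at least 0.5 FPKM by Pearson's r of log2(FPKM + 0.1), as a description. Most alike were Atf5 for Clec4d (r = 0.999), Slc25a40 for Clec4e (0.995), E2f1 for Clec4n (0.993), Cdc123 for Msr1 (0.993), Ehd1 for Trem2 (0.988), Thnsl1 for Cd36 (0.951) and AC154457.3 for Clec7a (0.908). The number of genes with r over 0.95 was 2440 for Clec4d, 1722 for Msr1, 1428 for Clec4n, 1173 for Clec4e, 83 for Trem2, 1 for Cd36 and 0 for Clec7a. Between receptors, Clec4d and Clec4n had r = 0.976 and Clec4d and Clec4e r = 0.943. Msr1, on another chromosome, had similar values with Clec4d (0.964), Clec4e (0.965) and Clec4n (0.939), so that such values were not particular to neighbors. Cd36 had negative values with Clec4d (-0.72), Clec4n (-0.69) and Clec4e (-0.65). The 9 points share the same libraries and fall into 3 groups of 3.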

How the data were processed

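Total RNA of the 9 libraries was sequenced as paired-end mRNA libraries. What the authors deposited is a table of FPKM for each gene in each library, with Ensembl identifiers and without gene names. The submitters' processing notes name HISAT2, featureCounts and Subread without versions. The genome build and annotation behind the values are not given in the sources used here. The methods of the study describe another siRNA dose and the addition of interferon, and conditions are given here per the labels. GENCODE M21 (GRCm38) gave a symbol for 27533 of the 28137 identifiers and none for the other 604.

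FPKM multiplied by exon length came in whole steps, taken as reads, for 98.4% of the named genes in all 9 libraries, within 0.03 of a read. The recovered reads state depth and gave the voom values. Intervals of ratios cover counting error only.

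The deposited values are not counts, so log2(FPKM + 0.1) was tested with limma 3.58.1 in R 4.3.3 (lmFit, eBayes with an intensity trend) in place of DESeq2, which the methods of the study name, on the 6 libraries of a comparison where a gene's mean FPKM was at least 0.5, with Benjamini-Hochberg adjustment over all genes tested. The rule for DEGs was an adjusted p below 0.05 with a log2 fold change beyond 1 in size. Fold changes are on the log2(FPKM + 0.1) scale. Single genes under the filter and ratios were compared by exact two-sided permutation tests. The scripts were tested on simulated data. Other steps used Python 3.11.15, pandas 2.3.3, numpy 2.4.6 and scipy 1.17.1.

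The receptors and the gene lists were chosen with earlier results of these data known. Named were the 9 receptors, in each list the 2 genes of largest change in each direction for RAB6A siRNA against NC and a fixed set of well-known members of the lists (Fcer1g, Tyrobp, Syk, Card9, Scarb1, Cd68, Cd163, Stab1, Clec5a, Clec12a and Clec10a), and for each receptor the gene most alike over the libraries. Genes outside this rule are stated as chosen after their values were seen. Alternatives were the pseudocounts 1 and 0.01, no filter, a filter at a mean of 1 FPKM, quantile normalization, scaling by median ratios, eBayes with no trend, a replicate block, all 9 libraries in one fit, each library left out, voom on recovered reads, and a correction for GC content and length by splines with 5 degrees of freedom.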

Additional observations from a re-analysis of the deposited data

How the results depend on the processing

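The count of receptors past an adjusted p of 0.05 stayed within 1.5 times of the reported one in each comparison under all alternatives run, including those that left out a library. The count of DEGs was 1 with a pseudocount of 1, Clec4d alone, in both comparisons of RAB6A siRNA. Without the filter it was 3 for RAB6A siRNA against NC, with Marco beside Clec4d and Clec4n. The calls of single receptors that changed are given beside them, apart from Clec7a in RAB6A against SFRP2 siRNA, which was -0.81 (adjusted p = 0.0373) with quantile normalization. For SFRP2 siRNA against NC, where none passed, some signs turned. With quantile normalization Msr1 was 0.027, Clec7a -0.031 and Clec4d 0.053, and with the correction for GC content and length Clec7a was -0.10 and Clec4e -0.050. With each library left out, Msr1 ranged from -0.053 to 0.0055, Clec7a from -0.15 to 0.15 and Clec4n from -0.12 to 0.091. The causes were not tested. No other alternative turned a sign. The deviations of same-numbered libraries correlated at -0.0648 to 0.0539, and these correlations showed no pairing by replicate number. The replicate block left 5 receptors lower for RAB6A siRNA against NC, 0 called for SFRP2 siRNA against NC and 6 for RAB6A against SFRP2 siRNA, and changed no call of a receptor. For RAB6A siRNA against NC it called 9103 of 12712 genes against 9418 without the block. For SFRP2 siRNA against NC the block went the other way, with 2988 genes at an unadjusted limma p under 0.05 against 2220 without it. The smallest adjusted p of that comparison in limma was 0.0529 with the block and 0.140 without. Depth limits Marco, Mrc1 and Clec7a, with 0 to 83 reads per library.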

Other observations

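Of the genes that mark other states and cell types, the sums of osteoclasts, dendritic cells and neutrophils were apart between RAB6A and NC libraries. The neutrophil sum was near the floor, at 0.00687 to 0.268 FPKM in NC and 0 FPKM in RAB6A libraries, and none of its genes was tested. The summed osteoclast markers (4 of 5 in the table) were 25.8 to 27.6 FPKM in NC, 25.0 to 27.4 FPKM in SFRP2 and 37.4 to 39.4 FPKM in RAB6A libraries, and of the 3 tested 1 rose and 2 fell. The gene that rose, Dcstamp, made up most of the sum, at 21.7 ± 0.391 FPKM in NC and 37.1 ± 0.880 FPKM in RAB6A libraries. The summed dendritic cell markers were 1.18 to 1.40 FPKM in NC and 0.175 to 0.289 FPKM in RAB6A libraries, with the single marker tested lower. Fibroblast markers summed to 1.42 to 2.71 FPKM in NC and 2.35 to 3.94 FPKM in RAB6A libraries, and 2 of the 3 tested rose, namely Col1a2 (log2 fold change 1.17, limma adjusted p = 0.00568) and Dcn (0.81, adjusted p = 0.0449). Endothelial markers summed to 0.873 to 0.934 and 0.902 to 1.17 FPKM, and the single one tested, Pecam1, rose by 0.69 (limma adjusted p = 0.0124). Epithelial markers summed to 0.483 to 1.24 and 1.00 to 2.83 FPKM, and the single one tested did not pass. Col1a2, Dcn and Pecam1 were at 0.310, 0.348 and 0.475 FPKM in NC and 0.825, 0.701 and 0.830 FPKM in RAB6A libraries. All 3 passed the filter only through the RAB6A libraries. At these NC levels a gene entered the test only when higher with RAB6A siRNA, so the fibroblast and endothelial counts give no direction. Xcr1, the dendritic cell marker tested, passed through NC (1.12 against 0.0492 FPKM). Of all genes tested, 37.6% rose and 36.5% fell. The genes of this paragraph were named after their values were seen.

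Within the macrophage and LPS lists the genes did not move together, as seen in genes chosen after their values were known. Lyz2, which encodes lysozyme, fell from 872 ± 24.0 FPKM in NC to 214 ± 23.0 FPKM in RAB6A libraries (log2 fold change -2.03, SE 0.09), and Csf1r, the receptor of macrophage colony-stimulating factor, from 73.6 ± 8.48 to 27.0 ± 1.19 FPKM (-1.44, SE 0.09). Acod1, which makes itaconate, fell by 1.98 (SE 0.07) and Tnf by 0.67 (SE 0.07), whereas Ptgs2, the inducible cyclooxygenase, rose by 0.68 (SE 0.10) and Il1b by 0.21 (SE 0.07). All 6 had an adjusted p of at most 0.0234 in limma (n = 3 libraries in each group). Nos2, at 340.1 ± 24.8 FPKM in NC and 392 ± 32.8 FPKM in RAB6A libraries, did not pass (adjusted p = 0.0665).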
